A study of Mus musculus with 15 samples.

Results

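The mRNAs of 6 tubulin genes (Tuba1a, Tuba1b, Tubb2a, Tubb2b, Tubb5 and Tubb6) and of the 4 tropomyosin genes (Tpm1, Tpm2, Tpm3 and Tpm4) were followed through 5 groups of sorted mouse liver cells. The 10 genes were picked by their names in the deposited table of 24493 genes. All 10 were present, and all 10 passed the filter on low values, which kept 13905 genes.

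RNA sequencing covered 15 libraries, 3 from each group, of cells taken from the liver without culture. The first 3 groups came from mice fed chow with DDC, a compound that injures bile ducts and hepatocytes: reprogrammed cells, biliary epithelial cells and hepatocytes. The remaining groups were biliary epithelial cells and hepatocytes of untreated mice. All mice, the untreated ones included, had received AAV-TBG-Cre at 4 weeks of age. This virus carries Cre under TBG, a promoter active in hepatocytes, so that labelled cells mark a hepatocyte origin. DDC chow was given from 5 weeks of age for 4 weeks. The sort markers are not given in the labels, and the labels do not say that libraries of one group came from separate animals, and p-values here reflect the library-to-library spread, which may be technical.

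Alpha-tubulin and beta-tubulin proteins pair into the subunits of microtubules, the stiff filaments that carry cargo, form the mitotic spindle and build the axoneme of cilia. Each family has several genes, called isotypes, and cells of different tissues use them in different proportions. Tropomyosins are coiled-coil proteins that lie along actin filaments and set which myosins and filament-severing proteins can reach them. Hepatocytes have microtubules that serve secretion and a cortical actin web around bile canaliculi, while biliary cells are columnar and carry a primary cilium.

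The members lie in pairs or alone on the mouse genome (GRCm38, GENCODE M21), and all 10 are annotated as protein-coding. Tuba1a (chromosome 15, 98949837 to 98953703) and Tuba1b (chromosome 15, 98931425 to 98934565) are neighbours on the minus strand, as are Tubb2a (chromosome 13, 34074274 to 34078007) and Tubb2b (chromosome 13, 34126748 to 34130466). Tubb5 lies at chromosome 17, 35833921 to 35838306. Tpm1 occupies chromosome 9, 67022590 to 67049406, Tpm2 chromosome 4, 43514711 to 43523765, Tpm3 chromosome 3, 90072649 to 90100902, and Tpm4 chromosome 8, 72134975 to 72153142. The coding sequences of Tuba1a and Tuba1b, both 1353 bases, were 98.3% identical, and those of Tubb2a and Tubb2b, both 1335 bases, were 96.5% identical. Of the 31-base windows in its transcripts, Tuba1a shared 77.0% with other genes, Tuba1b 68.9%, Tubb2a 56.4% and Tubb2b 43.1%. The largest partner of both alpha-tubulins was Tuba1c, an isotype outside the members, with 54.7% of the windows of Tuba1a and 59.0% of those of Tuba1b. How the authors' counting split reads between these near-identical copies is not known. The split within each pair, and between the alpha-tubulins and Tuba1c, is therefore uncertain. Tpm3 shared 27.0% and Tpm4 16.0% of such windows, while the share was below 4% for Tubb5, Tubb6, Tpm1 and Tpm2. Tpm1 has 16 annotated protein-coding transcripts and Tpm3 has 7, and the gene-level values used here add them together.

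Promoter sequences show what lies upstream of members that differed between the cell types and of close relatives that did not. Tuba1a and Tuba1b have nearly the same coding sequence but had different expression, and Tpm1 and Tpm4 are the tropomyosins with the largest DDC and cell type differences. For each of them the 250 bases before the RefSeq start are printed 5′ to 3′ on the gene's strand (build GRCm38.p6). Tpm1 has 16 annotated protein-coding starts in GENCODE, and its window stands before a single RefSeq start. Which starts gave the measured Tpm1 mRNA is not known from gene-level values. Capitals mark the GC box GGGCGG and the TEAD motif GGAATG, each on either strand. Windows are chr15:98953502-98953751 for Tuba1a and chr15:98934391-98934640 for Tuba1b, both on the minus strand. Those of the tropomyosins are chr9:67049214-67049463 on the minus strand for Tpm1 and chr8:72135038-72135287 on the plus strand for Tpm4.
Tuba1a: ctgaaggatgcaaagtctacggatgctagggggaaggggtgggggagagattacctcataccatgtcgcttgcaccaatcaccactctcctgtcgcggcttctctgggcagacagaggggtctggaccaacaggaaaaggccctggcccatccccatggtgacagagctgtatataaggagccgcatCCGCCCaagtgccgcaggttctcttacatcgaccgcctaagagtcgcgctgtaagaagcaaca
Tuba1b: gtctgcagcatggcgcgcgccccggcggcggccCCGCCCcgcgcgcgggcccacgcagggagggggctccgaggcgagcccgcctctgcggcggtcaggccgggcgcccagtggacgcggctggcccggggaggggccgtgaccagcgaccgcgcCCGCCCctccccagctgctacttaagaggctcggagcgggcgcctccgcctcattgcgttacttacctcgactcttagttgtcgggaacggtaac
Tpm1: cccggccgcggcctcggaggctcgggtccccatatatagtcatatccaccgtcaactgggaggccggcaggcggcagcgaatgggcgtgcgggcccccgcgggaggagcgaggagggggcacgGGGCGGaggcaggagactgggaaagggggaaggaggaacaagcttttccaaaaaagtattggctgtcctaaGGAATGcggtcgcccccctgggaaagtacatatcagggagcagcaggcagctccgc
Tpm4: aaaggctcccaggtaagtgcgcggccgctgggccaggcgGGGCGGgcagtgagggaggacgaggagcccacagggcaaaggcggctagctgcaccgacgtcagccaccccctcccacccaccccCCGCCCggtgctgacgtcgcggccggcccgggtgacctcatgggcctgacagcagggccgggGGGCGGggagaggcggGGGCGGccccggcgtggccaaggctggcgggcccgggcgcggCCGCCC

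The RefSeq promoter table, which runs from 250 bases before to 50 bases after each start, had entries for 8 of the 10 members and none for Tubb2b and Tubb6. With 2 starts for Tpm3, the members had 9 windows. GGGCGG was present in 8 of the 9, or 88.9%, against 35.7% of the 32851 promoters in the table. Tpm4 had 5 copies, Tuba1b 2 and Tuba1a 1. GGAATG was present in the Tpm1 and Tubb5 windows (22.2% of member windows and 14.7% of all promoters). TATAAA was found in the Tubb2a window alone among the members, at 13.6% of all promoters, and the CArG box, the motif of serum response factor, was in 0 of the 9 windows and 1.63% of all promoters. No motif overlapped another in the printed sequences, and a match or its absence says only which letters stand in these windows.

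Values below are TPM, the share of a transcript among all transcripts of its library, a relative abundance corrected for transcript length, divided by 1 scale factor per library. Read totals cannot be recovered from TPM, so sequencing depth and counting error are unknown for these libraries. The scale factors were 1.06 to 1.39 in reprogrammed cells, 1.40 to 1.64 in DDC biliary cells, 0.648 to 0.775 in DDC hepatocytes, 1.33 to 1.48 in untreated biliary cells and 0.558 to 0.608 in untreated hepatocytes. The summed level of 7 hepatocyte markers was 22353 to 73062 scaled TPM in reprogrammed cells and 12654 to 29075 in DDC biliary cells, against 71808 to 146073 in DDC hepatocytes. It was 27032 to 34734 in untreated biliary cells and 130973 to 150277 in untreated hepatocytes. The summed level of 8 biliary markers was 4354 to 10529 in reprogrammed cells, 7733 to 12688 in DDC biliary cells, 281 to 594 in DDC hepatocytes, 10329 to 11956 in untreated biliary cells and 18.3 to 24.8 in untreated hepatocytes. Both hepatocyte groups and both biliary groups were therefore ordered by their defining markers as labelled, with hepatocyte markers detected in every biliary and reprogrammed library. Fewer cells of a type and less RNA per cell cannot be told apart in such bulk samples.

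Differences between groups are given as log2 differences of scaled TPM with 1 added, a scale that shrinks differences of scarce mRNAs such as Tpm2. They were tested with limma, a linear model that shares information on spread across genes, and p-values were adjusted over all 13905 genes by the Benjamini-Hochberg method. A gene is called higher or lower when it passed 2 thresholds, an adjusted p below 0.05 and a log2 difference of 1 or more, or of -1 or less. Libraries are listed in the order 1, 2, 3, and ± gives the SD of 3 libraries.

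**Figure D1:**
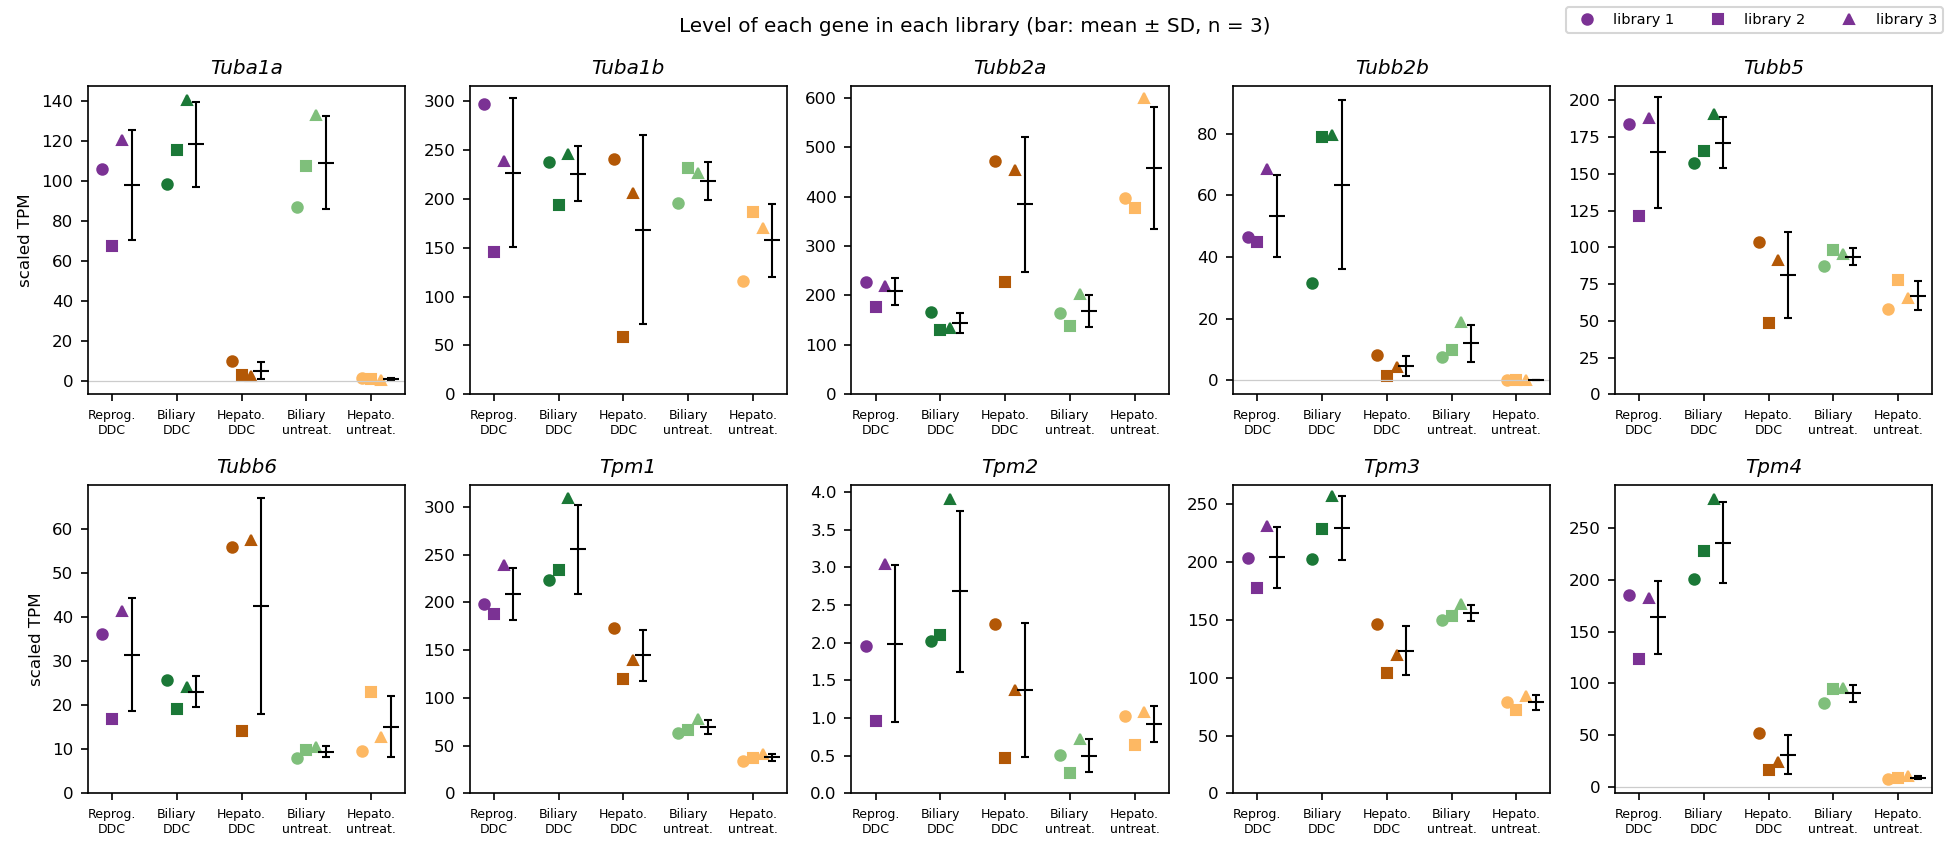
Scaled TPM (vertical axis, linear) of the 10 genes in each library, with 1 panel per gene, groups along the horizontal axis, a symbol per library and a bar for the mean ± SD of 3 libraries. Tuba1a, Tubb2b and Tpm4 were low in both hepatocyte groups, Tubb2a was highest there, and every DDC library of Tpm1 stood above every untreated one.

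Among the alpha-tubulins, Tuba1a separated the cell types by a wide margin, while Tuba1b was called between them, among the settings run, only in TPM as deposited. Tuba1a, the isotype best known from developing neurons, had 106, 67.4 and 120.4 scaled TPM in reprogrammed cells and 98.6, 116 and 140.4 in biliary cells of DDC mice. Its level was 10.1, 3.14 and 2.47 in DDC hepatocytes, 86.9, 107 and 133 in untreated biliary cells, and 1.62, 1.04 and 0.579 in untreated hepatocytes. The reprogrammed and both biliary groups overlapped, all of them stood above every hepatocyte library, and DDC hepatocytes stood above untreated hepatocytes without overlap. Tuba1b, a widely expressed alpha-tubulin, had 297, 145 and 238 in reprogrammed cells, 238, 194 and 246 in biliary cells of DDC mice and 240.2, 58.3 and 206 in DDC hepatocytes. Untreated biliary cells had 196, 232 and 226 of Tuba1b, and untreated hepatocytes 115, 186 and 170.3. Each group overlapped its neighbours in the order of Tuba1b means, and DDC hepatocyte library 2 was the lowest of all 15 libraries. Untreated biliary cells and untreated hepatocytes, which are not neighbours in that order, did not overlap.

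Among the beta-tubulins, Tubb2b and Tubb2a ran in opposite directions. Tubb2b, a beta isotype known from neurons, had 46.5, 44.8 and 68.4 scaled TPM in reprogrammed cells, 31.7, 79.0 and 79.6 in biliary cells of DDC mice and 8.10, 1.46 and 4.18 in DDC hepatocytes. It had 7.45, 9.90 and 18.8 in untreated biliary cells, while in untreated hepatocytes it was 0.0753 and 0.0595 in libraries 1 and 3 and listed at 0 in library 2. Reprogrammed and DDC biliary libraries thus stood above every other library for Tubb2b, while untreated biliary cells and DDC hepatocytes overlapped. Its close relative Tubb2a, also strong in brain, had 228, 177 and 219 in reprogrammed cells, 167, 131 and 134 in biliary cells of DDC mice and 471, 228 and 453 in DDC hepatocytes. Tubb2a was 165, 138 and 203 in untreated biliary cells and 397, 378 and 599.8 in untreated hepatocytes. DDC hepatocyte library 2 was at the level of the highest reprogrammed library for Tubb2a, and the other hepatocyte libraries were above every library of the 3 remaining groups.

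Tubb5, a broadly expressed beta isotype, was highest in reprogrammed and DDC biliary cells. Its level was 184, 121 and 188 scaled TPM in reprogrammed cells, 157, 166 and 191 in biliary cells of DDC mice and 104, 48.3 and 91.7 in DDC hepatocytes. Untreated biliary cells had 87.1, 97.9 and 95.6 and untreated hepatocytes 58.0, 77.5 and 65.5. Every reprogrammed and DDC biliary library was above every library of the other groups. Tubb6 (chromosome 18, 67390717 to 67402749, plus strand), a less abundant beta isotype, had 36.2, 16.9 and 41.3 in reprogrammed cells, 25.7, 19.1 and 24.2 in biliary cells of DDC mice and 55.7, 14.1 and 57.4 in DDC hepatocytes. It had 8.04, 9.79 and 10.6 in untreated biliary cells and 9.66, 22.9 and 12.7 in untreated hepatocytes, and each group overlapped its neighbours in the order of means. The DDC and untreated biliary groups, which are not neighbours in that order, did not overlap.

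Of the 4 tropomyosins, 3 were abundant and Tpm2 was scarce. Tpm1, which gives both muscle and cytoskeletal tropomyosins, had 199, 188 and 239.7 scaled TPM in reprogrammed cells, 223, 234 and 309 in biliary cells of DDC mice and 174, 120.2 and 139 in DDC hepatocytes. It had 63.7, 66.7 and 78.0 in untreated biliary cells and 34.1, 37.1 and 41.7 in untreated hepatocytes. Every DDC library of Tpm1, whatever the cell type, stood above every untreated library. Tpm4, a cytoskeletal tropomyosin, had 185, 123 and 183 in reprogrammed cells, 201, 228 and 278 in biliary cells of DDC mice and 52.2, 16.3 and 24.3 in DDC hepatocytes. Its untreated levels were 80.6, 94.3 and 95.7 in biliary cells and 7.06, 8.47 and 9.90 in hepatocytes. No pair of neighbouring groups overlapped in the order of Tpm4 means, which was DDC biliary, reprogrammed, untreated biliary, DDC hepatocytes and untreated hepatocytes.

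Tpm3, whose products include cytoskeletal and slow-muscle tropomyosins, varied less between groups than Tpm1 or Tpm4. It had 204, 178 and 231 scaled TPM in reprogrammed cells, 202, 228 and 257 in biliary cells of DDC mice and 147, 104 and 119.8 in DDC hepatocytes. Untreated biliary cells had 149.9, 154 and 164 of it and untreated hepatocytes 79.3, 72.2 and 84.3. Apart from the overlapping reprogrammed and DDC biliary groups, neighbouring groups in the order of Tpm3 means did not overlap. Tpm2, the tropomyosin of slow and smooth muscle, stayed between 0.275, in untreated biliary cells, and 3.91, in DDC biliary cells.

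Reprogrammed cells had more Tuba1a, Tubb2b, Tubb5 and Tpm4 mRNA than hepatocytes of the same treatment. This comparison addresses what separates reprogrammed cells from hepatocytes of DDC livers. Tuba1a averaged 98.0 ± 27.5 scaled TPM in reprogrammed cells and 5.23 ± 4.21 in DDC hepatocytes, a log2 difference of 4.15 (SE 0.38, adjusted p = 1.97e-06). Tubb2b averaged 53.3 ± 13.2 in reprogrammed cells and 4.58 ± 3.34 in DDC hepatocytes (log2 difference 3.45, SE 0.46, adjusted p = 7.31e-05). Tpm4 averaged 164 ± 35.0 in reprogrammed cells and 30.9 ± 18.9 in DDC hepatocytes (log2 difference 2.50, SE 0.32, adjusted p = 4.34e-05). Tubb5 was nearest the threshold, at 165 ± 37.5 in reprogrammed cells and 81.3 ± 29.2 in DDC hepatocytes (log2 difference 1.05, SE 0.25, adjusted p = 0.00385). In all, 4 of the 10 members were called higher and 0 lower, beside 13.7% of all tested genes higher and 5.77% lower.

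Among the 6 members not called in reprogrammed cells against DDC hepatocytes, 3 passed the adjusted p with a smaller difference. These were Tubb2a (log2 difference -0.82, adjusted p = 0.0236), Tpm1 (0.54, adjusted p = 0.0158) and Tpm3 (0.73, adjusted p = 0.00101). Tuba1b differed by 0.60 (95% interval -0.32 to 1.53), Tubb6 by -0.28 (-1.32 to 0.76) and Tpm2 by 0.35 (-0.33 to 1.02). Tubb5 lost its call without reprogrammed library 1 (log2 difference 0.96), reprogrammed library 3 (0.94) or DDC hepatocyte library 2 (0.72). With only the compared groups in the fit its adjusted p was 0.0548. Without DDC hepatocyte library 2, Tubb2a was called lower (-1.16). In TPM as deposited, where the median gene was shifted by 0.64, 7 members were called higher and 0 lower, with Tuba1b, Tpm1 and Tpm3 added.

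Against DDC biliary cells, no member of the 10 was called in reprogrammed cells. The question here is what sets reprogrammed cells apart from the biliary cells of DDC livers. Log2 differences lay between -0.54, for Tpm4, and 0.53, for Tubb2a, and 0 members were called by limma and 0 had an unadjusted p under 0.05. Over all tested genes, 2.78% were called higher and 0.734% lower in this comparison. Those shares depended on single libraries. They were 0.381% and 0.331% without DDC biliary library 3, 0.719% and 0.266% without reprogrammed library 2, and 4.5% and 1.49% without reprogrammed library 1, while without DDC biliary library 1 the lower share was 1.17%. With only the compared groups in the fit, 1 gene was called higher and 2 lower. Tpm4 averaged 164 ± 35.0 in reprogrammed cells, against 236 ± 39.1 in DDC biliary cells, and Tubb2a 208 ± 27.0 in reprogrammed and 144 ± 19.9 in DDC biliary cells. In both genes the libraries of the groups did not overlap, as for 14.7% of genes in the higher and 17.5% in the lower direction. The 95% intervals differed in width between the members. For Tpm3 the interval was -0.47 to 0.13. As a percentage of the DDC biliary mean, reprogrammed cells had 82.9% for Tuba1a, 84.0% for Tubb2b and 69.4% for Tpm4, and 73.5% for the summed biliary markers.

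Reprogrammed library 2 had the lowest level within its group for 10 of the 10 members. Tubb2a, which was higher in DDC hepatocytes than in DDC biliary cells, was among them, at 177. How many of all tested genes were lowest in that library was not counted, so this is not read as particular to the members. That library also had the highest hepatocyte marker sum, at 73062 scaled TPM against 22353 and 41541 in libraries 1 and 3. Its biliary marker sum was 4354, against 10529 and 7684. The part of these marker levels in the spread of the members was not tested.

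In untreated livers, biliary cells had more Tuba1a, Tpm4 and Tubb2b mRNA than hepatocytes and less Tubb2a. Tuba1a averaged 109 ± 23.1 scaled TPM in untreated biliary cells and 1.08 ± 0.521 in hepatocytes of untreated mice (log2 difference 5.74, adjusted p = 3.91e-08). Tpm4 averaged 90.2 ± 8.39 in untreated biliary cells and 8.48 ± 1.42 in hepatocytes of untreated mice (3.27, adjusted p = 1.4e-06). Tubb2b, at 12.1 ± 6.0 in the biliary libraries and close to 0 in the hepatocyte libraries, was also called higher (3.55, adjusted p = 1.95e-05). Tubb2a was called lower, at 169 ± 32.4 in untreated biliary cells and 458 ± 123 in hepatocytes of untreated mice (-1.42, adjusted p = 0.000412). That makes 3 members higher and 1 lower, beside 21.6% of all genes higher and 15.6% lower. Tpm1 (0.87) and Tpm3 (0.98) passed the adjusted p but not the size threshold. In TPM as deposited, with a median shift of 0.98, 7 members were called higher and 0 lower, and the Tubb2a difference was -0.15 (adjusted p = 0.647).

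Under DDC, 4 members were called higher and 1 lower in biliary cells against hepatocytes. Biliary cells were called higher for Tuba1a (log2 difference 4.44, adjusted p = 5.53e-07), Tubb2b (3.61, adjusted p = 1.93e-05), Tpm4 (3.04, adjusted p = 3.28e-06) and Tubb5 (1.13, adjusted p = 0.00134). Tubb5 averaged 171 ± 17.6 scaled TPM in DDC biliary cells and 81.3 ± 29.2 in DDC hepatocytes. In untreated cells its difference was 0.48 with no call, and the DDC response of hepatocytes minus that of biliary cells was -0.65 (adjusted p = 0.281), so a Tubb5 difference particular to DDC is not shown. Tubb2a was called lower, at 144 ± 19.9 in DDC biliary cells and 384 ± 136 in DDC hepatocytes (-1.34, adjusted p = 0.000685). Over all genes, 20.2% were called higher and 14.4% lower. This comparison shares its DDC hepatocyte libraries with that of reprogrammed cells, so their values are not independent. Without DDC hepatocyte library 2, Tubb5 was no longer called (0.80) and Tubb6 was called lower (-1.27). TPM as deposited gave 8 higher and 0 lower calls, with a median shift of 0.91 and a Tubb2a difference of -0.24 (adjusted p = 0.458).

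**Figure D2:**
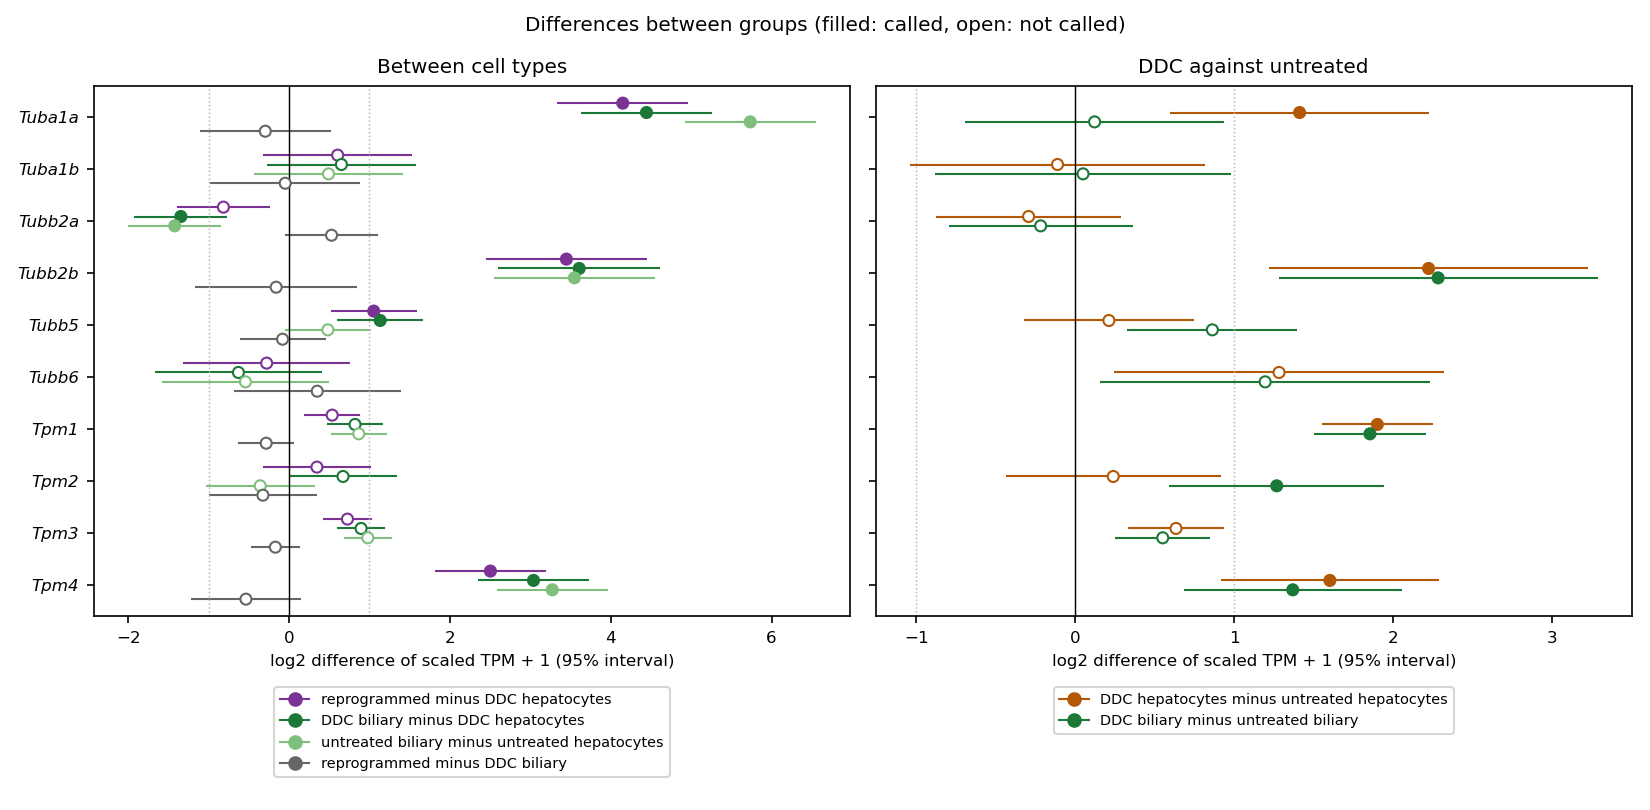
Log2 differences of scaled TPM + 1 with 95% intervals (horizontal axis) for the 10 genes, between cell types on the left and between DDC and untreated cells on the right. Filled points passed both thresholds and open points did not; dotted lines mark a difference of 1 in size. Grey points, for reprogrammed cells minus DDC biliary cells, are all open and lie between -0.54 and 0.53.

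DDC feeding went with more tropomyosin mRNA in both cell types. Tpm1 rose in hepatocytes, at 144 ± 27.1 scaled TPM in DDC and 37.6 ± 3.85 in untreated hepatocytes (log2 difference 1.90, SE 0.16, adjusted p = 3.95e-06). In biliary cells it rose by nearly the same amount, at 256 ± 46.8 in DDC and 69.5 ± 7.56 in untreated cells (1.85, SE 0.16, adjusted p = 4.82e-06). Tpm4 rose in hepatocytes, with 30.9 ± 18.9 in DDC and 8.48 ± 1.42 in untreated cells (1.60, SE 0.32, adjusted p = 0.00248). Its rise in biliary cells was 1.37, at 236 ± 39.1 in DDC and 90.2 ± 8.39 in untreated cells (SE 0.32, adjusted p = 0.00684). Tpm3 passed the adjusted p with differences of 0.63 in hepatocytes and 0.55 in biliary cells, below the size threshold.

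Of the 6 tubulins, 2 rose with DDC in hepatocytes and 1 in biliary cells at the same threshold. Tubb2b rose in hepatocytes, at 4.58 ± 3.34 in DDC and 0.0449 ± 0.0397 scaled TPM in untreated hepatocytes (log2 difference 2.22, adjusted p = 0.00339). It also rose in biliary cells, at 63.4 ± 27.5 in DDC and 12.1 ± 6.0 in untreated cells (2.28, adjusted p = 0.0031). Tuba1a rose in hepatocytes (1.41, adjusted p = 0.0141), and its biliary difference was 0.12 (95% interval -0.69 to 0.94). Tpm2, still low, was called higher in DDC biliary cells, at 2.68 ± 1.07 against 0.500 ± 0.224 in untreated biliary cells (1.27, adjusted p = 0.00963). Calls thus numbered 4 higher and 0 lower in hepatocytes (6.59% and 4.42% of all genes) and 4 higher and 0 lower in biliary cells (5.68% and 4.74%). Tuba1b and Tubb2a differed by -0.11 and -0.29 in hepatocytes and by 0.05 and -0.22 in biliary cells, with no call. Tubb6 differed by 1.28 in hepatocytes (adjusted p = 0.064) and 1.19 in biliary cells (adjusted p = 0.0854). With only the biliary groups in the limma fit, Tubb6 was called higher (adjusted p = 0.00336), beside 6.13% of all genes.

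Among the hepatocyte responses, calls of Tuba1a and Tubb6 depended on single libraries. Tuba1a lost its call without DDC hepatocyte library 1 (log2 difference 0.90) or untreated hepatocyte library 3 (adjusted p = 0.0548), and Tubb6 gained one without DDC hepatocyte library 2 (1.93) or untreated hepatocyte library 2 (1.61). With only the hepatocyte groups in the fit, the adjusted p was 0.111 for Tuba1a and 0.0599 for Tpm4. Of 8 biliary markers, 3 were called higher in DDC than in untreated hepatocytes (Epcam, Sox9 and Spp1) and 5 were not called, beside 6.59% of all genes called higher. DDC hepatocytes had a summed biliary marker level of 472, 281 and 594 scaled TPM, against 24.8, 22.1 and 18.3 for untreated hepatocytes. Within DDC hepatocytes, library 2 was lowest in these markers and also in Tubb2b, Tpm4 and Tpm1, but not in Tuba1a. Library 3 was highest in the markers, lowest in Tuba1a and below library 1 in Tubb2b, Tpm4 and Tpm1. Tuba1a in DDC hepatocytes was 4.42% of its mean in DDC biliary cells, Tubb2b 7.22%, Tpm4 13.1% and Tpm1 56.5%, and the summed biliary markers stood at 4.39%. In untreated hepatocytes the same percentages of untreated biliary cells were 0.99%, 0.373%, 9.39% and 54.1%, with 0.198% for the biliary markers. These percentages were chosen after the values were seen, and the part of biliary RNA in the hepatocyte rises was not tested.

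Whether hepatocytes and biliary cells responded differently to DDC was tested as the difference between their responses. By limma 0 of the 10 members were called, and 2 had an unadjusted p under 0.05, beside 8.4% of all genes called in either direction. Those 2 were Tuba1a, with a response larger by 1.29 in hepatocytes (95% interval 0.14 to 2.44, adjusted p = 0.145), and Tpm2, with a response smaller by 1.03 (adjusted p = 0.163). With the library number as a block within treatment, Tpm2 passed (-1.03, adjusted p = 0.0499). For Tpm1 the difference between the responses was 0.05, with a 95% interval of -0.45 to 0.54.

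Set against untreated hepatocytes, reprogrammed cells had 6 members called higher and 1 lower, where 20.6% and 12.5% of all genes were called. Tubb2b differed by 5.67 on the log2 scale, Tuba1a by 5.56, Tpm4 by 4.11, Tpm1 by 2.44, Tpm3 by 1.36 and Tubb5 by 1.27. Tubb2a differed by -1.11 (adjusted p = 0.00285). The comparison of DDC with untreated hepatocytes uses the same untreated libraries, and there Tpm1 differed by 1.90 and Tpm3 by 0.63. The Tubb2a call was lost without reprogrammed library 2 (-1.0) or untreated hepatocyte library 3 (-0.90), and in TPM as deposited (-0.05), which gave 9 higher and 0 lower calls at a median shift of 0.83.

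Because TPM are per transcript length, the isotypes of a family can be set side by side within a library, and such shares do not depend on the scale factor. They do depend on how reads were split between near-identical isotypes, which is not known. Tuba1a made up 21.1 ± 1.95% of alpha-tubulin TPM in reprogrammed cells, 26.3 ± 3.78% in DDC biliary cells, 1.34 ± 0.821% in DDC hepatocytes, 23.7 ± 2.65% in untreated biliary cells and 0.198 ± 0.120% in hepatocytes of untreated mice. Tuba4a, an isotype outside the members, was larger in hepatocytes, at 23.7 ± 6.60% in DDC and 46.3 ± 5.50% in untreated hepatocytes. Tuba4a stood at 10.9 ± 2.38% in reprogrammed, 8.35 ± 1.75% in DDC biliary and 18.6 ± 3.07% in untreated biliary cells. Tuba1b had the largest mean alpha-tubulin share in each group except untreated hepatocytes. It held 48.1 ± 4.52% in reprogrammed cells, 50.2 ± 2.46% in DDC biliary cells, 38.3 ± 10.7% in DDC hepatocytes and 47.8 ± 3.42% in untreated biliary cells. In untreated hepatocytes Tuba1b held 27.1 ± 6.35%, below Tuba4a.

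Within the beta-tubulins, Tubb2a held 33.1 ± 4.40% in reprogrammed cells, 24.8 ± 3.56% in DDC biliary cells, 54.0 ± 6.83% in DDC hepatocytes, 38.6 ± 4.43% in untreated biliary cells and 53.3 ± 5.27% in hepatocytes of untreated mice. Tubb5 held 25.7 ± 0.409% in reprogrammed cells, 29.5 ± 2.09% in DDC biliary cells, 11.4 ± 1.54% in DDC hepatocytes, 21.6 ± 2.05% in untreated biliary cells and 8.03 ± 1.74% in hepatocytes of untreated mice. Tubb2a had the largest mean share among beta-tubulins in each group except DDC biliary cells. There Tubb4b, an isotype outside the members, had the largest, at 30.6 ± 2.95%. The share of Tubb2a was lower in DDC biliary cells than in each of the other groups, while that of Tubb5 was higher there. Tubb2b reached 8.43 ± 1.66% in reprogrammed and 10.9 ± 4.78% in DDC biliary cells, against 0.573 ± 0.251% in DDC hepatocytes. Tubb2b was at 2.71 ± 1.07% in untreated biliary cells and 0.00541 ± 0.00528% in hepatocytes of untreated mice. Summed beta-tubulin TPM after scaling were 642 ± 152 in reprogrammed cells, 581 ± 31.4 in DDC biliary cells, 739 ± 322 in DDC hepatocytes, 435 ± 41.7 in untreated biliary cells and 854 ± 176 in hepatocytes of untreated mice.

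The tropomyosins differed in their sum as well as in their make-up. Their summed level was 578 ± 83.7 scaled TPM in reprogrammed cells, 724 ± 113 in DDC biliary cells, 300.1 ± 68.2 in DDC hepatocytes, 316 ± 21.7 in untreated biliary cells and 126 ± 9.99 in hepatocytes of untreated mice. Tpm3 held 35.3 ± 0.875% of it in reprogrammed cells, 31.8 ± 1.35% in DDC biliary cells, 41.4 ± 2.09% in DDC hepatocytes, 49.4 ± 1.33% in untreated biliary cells and 62.6 ± 2.33% in hepatocytes of untreated mice. Tpm1 held more in DDC than in untreated cells of either type, with 48.4 ± 1.83% in DDC and 29.9 ± 1.68% in untreated hepatocytes, and 35.2 ± 1.35% in DDC and 22.0 ± 0.995% in untreated biliary cells. Tpm4 held 28.1 ± 3.14% in reprogrammed cells, 32.6 ± 0.518% in DDC biliary cells and 9.74 ± 3.74% in DDC hepatocytes. In an exact two-sided permutation test of 3 against 3 libraries the smallest possible p is 0.1, so no share could pass 0.05. Of 70 shares compared, the 51 whose groups did not overlap had an exact p of 0.1, or 0.137 after Benjamini-Hochberg adjustment. They covered 7 of 10 shares in reprogrammed cells against DDC hepatocytes and 4 of 10 against DDC biliary cells. In the latter comparison the levels of 14.7% of all tested genes did not overlap in the higher and 17.5% in the lower direction. Those percentages are of levels and not of shares within a family, and none is given for the other comparisons. The counts of shares are therefore a description and are not read as particular to the members. Shares of a family add up to the whole, so they are not independent of each other.

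**Figure D3:**
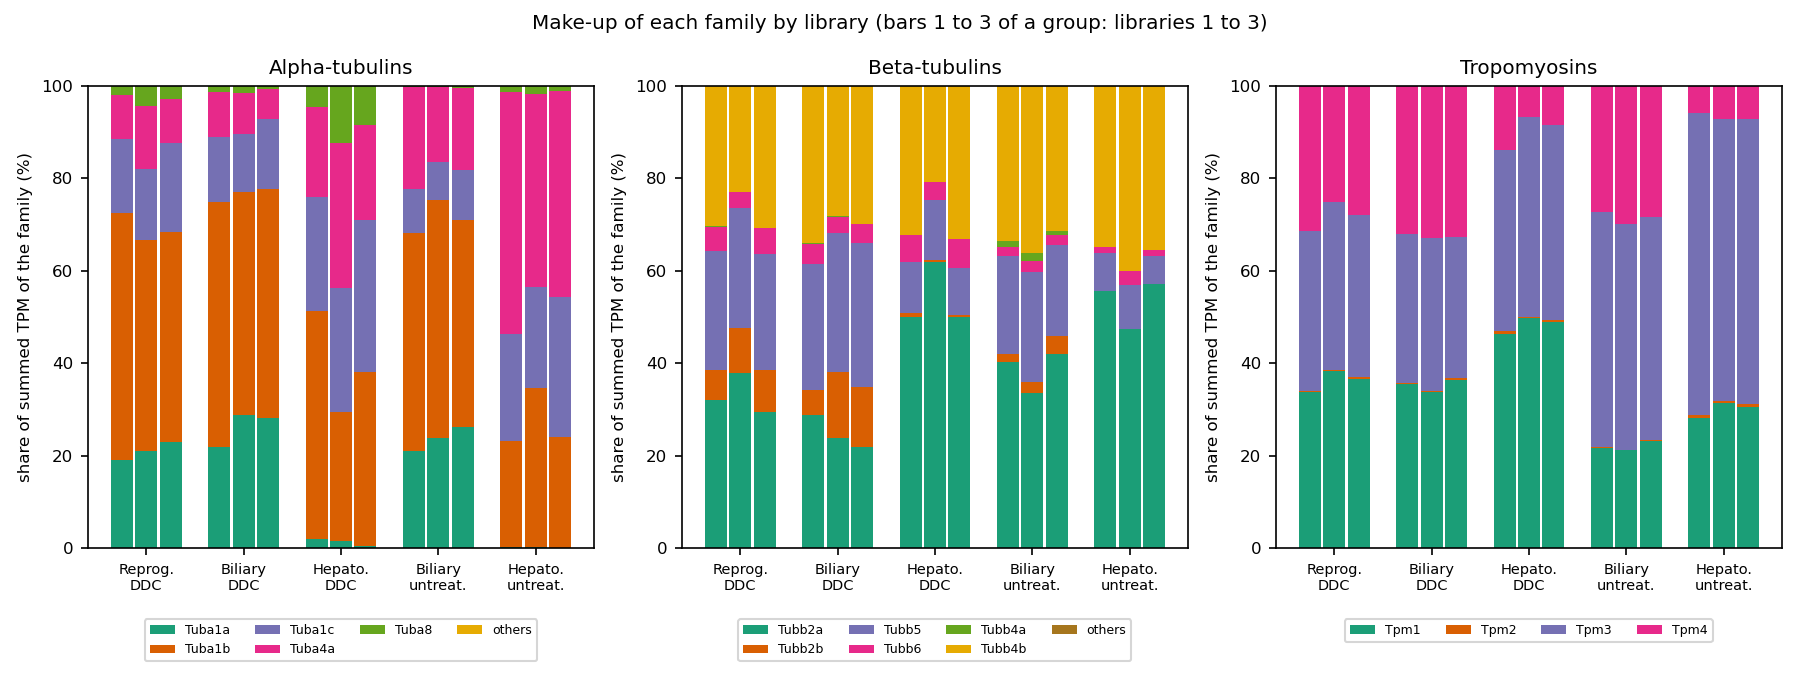
Share of the summed TPM of each family (vertical axis, percent, from 0) held by each isotype, with 1 bar per library and 3 bars per group. Tuba1a and Tubb5 take larger shares in reprogrammed and biliary libraries than in hepatocyte libraries, and Tpm1 takes a larger share in DDC than in untreated cells of each type.

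Proliferation markers varied from library to library, and their levels are set beside those of the members as a description, with no test. The summed level of 5 proliferation markers (Mki67, Top2a, Ccnb1, Cdk1 and Birc5) was 80.4, 27.3 and 65.3 scaled TPM in reprogrammed cells, 63.0, 46.3 and 65.3 in biliary cells of DDC mice and 105, 2.76 and 81.7 in DDC hepatocytes. It was 19.3, 31.2 and 10.3 in untreated biliary cells and 8.14, 49.9 and 8.46 in untreated hepatocytes. DDC hepatocyte library 2, the lowest of all 15 in these markers, was also the lowest of its group in 9 of the 10 members, tropomyosins included, and the lowest of all libraries in Tuba1b and Tubb5. The exception was Tuba1a, with 3.14 in that library and 2.47 in library 3. Reprogrammed library 2, the lowest of its group in these markers, was the lowest in all 10 members, Tuba1a included. How many of all tested genes were lowest in each of these libraries was not counted. Untreated hepatocyte library 2, the highest untreated library in these markers, had the highest Tubb6 and Tubb5 level of its group. The biliary groups kept this order only in part. DDC biliary library 2, the lowest of its group in these markers, was the lowest in Tuba1b, at 194, and in Tubb6, at 19.1. Its Tubb5 level was 166, between 157 and 191. Untreated biliary library 2, the highest of its group in these markers, was the highest in Tuba1b, at 232, and in Tubb5, at 97.9. Untreated biliary library 3, the lowest of its group in these markers, had the highest Tubb6, at 10.6. The part of proliferation in the differences between groups was not tested.

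**Figure D4:**
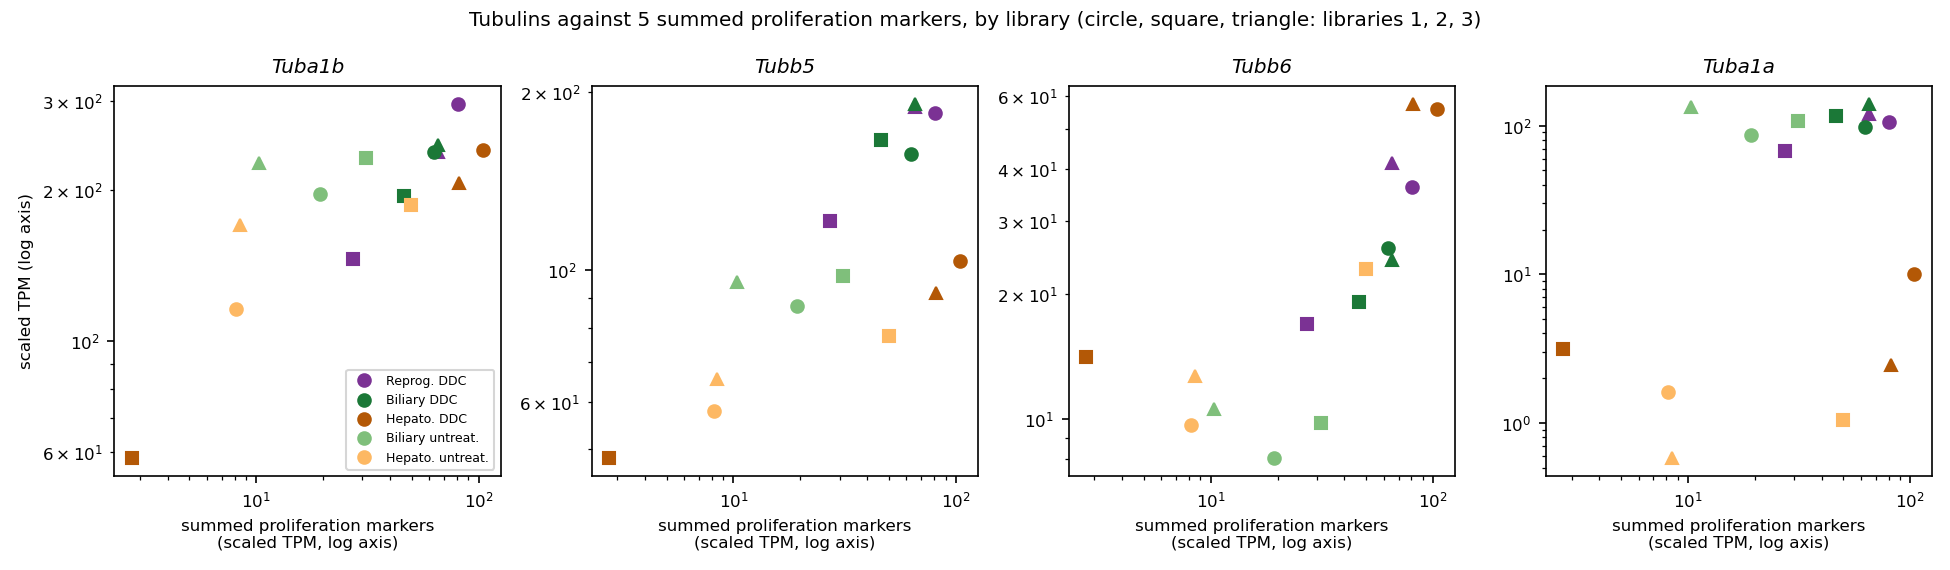
Scaled TPM of Tuba1b, Tubb5, Tubb6 and Tuba1a (vertical axes, log scale) against the summed scaled TPM of 5 proliferation markers (horizontal axis, log scale), with 1 point per library, colour for the group and symbol for the library number. DDC hepatocyte library 2 lies at the lower left in Tuba1b and Tubb5, while Tuba1a splits by cell type.

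Levels of markers of muscle and stromal cells, which also express tropomyosins, are set beside those of the members in the same way. The summed level of 11 such markers was 275 to 429 scaled TPM in reprogrammed cells and 392 to 625 in DDC biliary cells, against 13.1 to 22.3 in DDC hepatocytes. It was 125 to 138 in untreated biliary cells and 1.36 to 5.17 in untreated hepatocytes. In the reprogrammed and biliary groups most of it was Rgs5, a regulator of G protein signalling known from pericytes. This did not hold in the hepatocyte groups. Without Rgs5 the sums were 14.4 to 50.4 in reprogrammed cells, 12.1 to 67.6 in DDC biliary cells, 10.7 to 11.6 in DDC hepatocytes, 21.5 to 29.6 in untreated biliary cells and 1.28 to 4.84 in untreated hepatocytes. The smooth muscle myosin gene Myh11 was at 0 in DDC and untreated hepatocytes, and Cnn1 at 0 in untreated hepatocytes. Rgs5 was also the gene whose levels ran most like those of Tpm4 over the 15 libraries (r = 0.989). The part of stromal cells in the tropomyosin levels was not tested.

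Other genes of the actin cytoskeleton differed in reprogrammed cells against DDC hepatocytes in several groups. Over all tested genes 13.7% were called higher in this comparison. Of 10 tested partners of tropomyosin and actin filaments, 5 were called higher and 0 lower (median log2 difference 0.92, against 0.06 over all genes). They included the crosslinkers Flna (4.39, at 152 scaled TPM in reprogrammed cells and 6.56 in DDC hepatocytes) and Actn1 (1.95), and the calponin family genes Cnn2 (3.94) and Tagln2 (1.18). Of 10 genes of actin turnover, 6 were called higher and 0 lower (median 1.69). Among them were the actin-sequestering thymosins Tmsb4x (4.06, at 942 and 56.4) and Tmsb10 (3.93) and the filament-capping genes Vil1 (2.93) and Capg (2.74). The cytoplasmic actin gene Actg1 (1.26) was the called one of 3 actins.

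Non-muscle myosin II is the motor whose access to actin tropomyosins control. In reprogrammed cells against DDC hepatocytes 1 of 8 genes was called higher, a share near the 13.7% of all genes. In DDC against untreated hepatocytes 4 of 8 were called higher, beside 6.59% of all genes, among them Myh9 (1.37), Myl12a (1.25) and Myh14 (1.24). In DDC against untreated biliary cells 0 of 8 were called, beside 5.68% of all genes called higher. Of 18 tested genes for serum response factor, its MRTF cofactors and their known targets, a list that holds Tpm1, Tpm2 and Tpm4 themselves, 7 were called higher in reprogrammed cells against DDC hepatocytes (median 0.63), beside 13.7% of all genes. The counts were 5 in DDC hepatocytes and 6 in DDC biliary cells against their untreated cells, beside 6.59% and 5.68% of all genes, with 0 lower each time. Tpm4 was among the called genes in all 3 comparisons, Tpm1 in each comparison of DDC with untreated cells and Tpm2 in the biliary one. These counts therefore repeat in part the calls of the members themselves. Outside the members, Csrp1, a LIM protein of actin filaments, was called higher in all 3 comparisons. It differed by 2.66 in reprogrammed cells against DDC hepatocytes.

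Calls among the genes that fold, modify or bind tubulin are read against the 13.7% of all genes called higher in reprogrammed cells against DDC hepatocytes. Of 15 genes for tubulin folding, 1 was called higher in reprogrammed cells against DDC hepatocytes, the small GTPase gene Arl2 (1.20), with a list median of -0.04. Of 12 genes that modify tubulin 3 were called higher, Atat1, which acetylates alpha-tubulin (1.04), and the detyrosinases Vash1 (1.37) and Vash2 (2.55). Of 15 microtubule-binding genes 2 were called higher, Map1b (2.06) and Map2 (2.59), both under 10 scaled TPM. Outside the members, the alpha-tubulin Tuba8 was called lower (-1.14), at 13.2 in reprogrammed cells and 31.6 scaled TPM in DDC hepatocytes. Against DDC biliary cells, Tuba8 was called higher in reprogrammed cells (1.28, adjusted p = 0.0147) and the other genes of these lists were not called.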

How the data were processed

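Total RNA of sorted mouse liver cells was sequenced in 15 libraries, 3 in each of 5 groups, and each library was assigned by its title. The deposited table holds TPM per gene, made with Salmon on mm10 per the submitters' processing notes. The version and annotation are not given in the sources used here. TPM are relative and keep no read totals, so depth is unknown and count tests were not used.

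Genes with at least 1 TPM in at least 3 libraries were kept (13905 of 24493). Each library was divided by a scale factor, found as the median of its values relative to gene-wise geometric means (11924 genes). Log2(scaled TPM + 1) was fitted with limma 3.58.1 in R 4.3.3, using 1 model of the 5 groups (10 residual degrees of freedom) and a variance prior that follows mean expression. A gene was called at a Benjamini-Hochberg adjusted p below 0.05 over all genes together with a log2 difference of 1 or more in either direction. Isotype shares were compared by exact two-sided permutation. The limma fit was checked on simulated data.

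The members, gene lists and tests were chosen with earlier results of these data known. All members are named. Of each other list, up to 4 called genes were taken, with the largest difference in reprogrammed cells against DDC hepatocytes and a mean of 10 or more scaled TPM in 1 of the groups; Vash1, Vash2, Map1b, Map2 and genes named for other comparisons were chosen after their values were seen. For likeness, the 2 genes with the highest correlation were taken.

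Libraries of the same number deviated together from their group means. Correlations of these deviations across genes were 0.150 to 0.236 between untreated biliary cells and hepatocytes. They were 0.136 to 0.449 between reprogrammed cells and DDC hepatocytes and 0.208 to 0.456 between reprogrammed and DDC biliary cells. Between DDC biliary cells and DDC hepatocytes the range was 0.0436 to 0.319. The main fit was not paired, and the library number entered as a block only in an alternative fit. The labels do not say what the numbers mark.

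Gene positions and transcripts came from GENCODE M21 (GRCm38, the assembly of mm10) and promoters from RefSeq (GRCm38.p6); coding sequences were aligned with Biopython 1.88. Plots used matplotlib 3.10.9 (Python 3.11.15). Alternatives were TPM as deposited, pseudocounts of 0.1 and 5, no filter on low values, a minimum of 5 TPM, a fit of the compared groups alone, the library number as a block within treatment, family sums over the members alone, and leaving out each library in turn. The genes most like Tuba1a over the libraries are not reported here.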

Additional observations from a re-analysis of the deposited data

How the results depend on the processing

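The choice of scaling changed several counts of calls. In TPM as deposited, members called numbered 7 in untreated biliary cells against hepatocytes, 8 under DDC and 7 in reprogrammed cells against DDC hepatocytes, in place of 4, 5 and 4. Directions turned there for Tubb6 (0.62 in untreated and 0.44 in DDC biliary cells against hepatocytes, 0.49 in reprogrammed cells against DDC hepatocytes), Tpm2 (0.14 in untreated biliary cells against hepatocytes) and Tuba1b (0.15 in DDC against untreated hepatocytes). For the difference between the DDC responses they turned for Tuba1b (0.0046) and Tubb2a (0.091), for Tubb2b with a pseudocount of 0.1 (2.38) and for Tpm4 with a pseudocount of 5 (-0.037). None of these was a called result. The count in DDC against untreated hepatocytes was 2 with a pseudocount of 5, where Tuba1a (0.68) and Tubb2b (0.87) were lost, and 2 with only the compared groups in the fit. A pseudocount of 5 also lowered the share of all genes called higher, to 6.13% in place of 13.7% in reprogrammed cells against DDC hepatocytes and to 2.83% in place of 6.59% in DDC against untreated hepatocytes. With a pseudocount of 5 the biliary Tpm2 call was lost (0.47), and with a filter of 5 TPM Tpm2 was not tested. The cause was not tested. With the library number as a block within treatment, 1 member was called in the difference between the DDC responses (Tpm2), and the block changed no other count; a paired fit was not made for the other comparisons across treatments. Family sums over the members alone moved 27 of 30 shares by more than 1 SD.

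Leaving out each library in turn, calls ranged from 4 to 5 (untreated biliary cells against hepatocytes), 5 to 6 (the same under DDC), 3 to 4 (reprogrammed cells against DDC hepatocytes), 0 to 0 (against DDC biliary cells), 6 to 8 (against untreated hepatocytes), 3 to 5 (DDC against untreated hepatocytes), 4 to 4 (DDC against untreated biliary cells) and 0 to 0 (the difference between the DDC responses). Of 80 member results, 18 changed sign, and 0 of the 28 called ones. In reprogrammed cells against DDC hepatocytes, Tuba1b ranged from -0.033 to 0.98 and Tubb6 from -0.92 to 0.10. Against DDC biliary cells, Tuba1b ranged from -0.27 to 0.24, Tubb2b from -0.59 to 0.059 and Tubb5 from -0.19 to 0.12. With DDC in hepatocytes, Tuba1b ranged from -0.49 to 0.53, Tubb2a from -0.48 to 0.045, Tubb5 from -0.00016 to 0.54 and Tpm2 from -0.027 to 0.54. With DDC in biliary cells, Tuba1a ranged from -0.031 to 0.27 and Tuba1b from -0.026 to 0.15. For the difference between the responses the ranges were -0.53 to 0.48 for Tuba1b, -0.26 to 0.26 for Tubb2a, -0.51 to 0.43 for Tubb2b, -0.24 to 0.73 for Tubb6, -0.094 to 0.19 for Tpm1, -0.046 to 0.20 for Tpm3 and -0.22 to 0.60 for Tpm4. Depth is unknown, so how far counting error limits the low values of Tpm2 and of Tubb2b in untreated hepatocytes cannot be stated.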

Other observations

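The members fell into patterns that can be described by the genes whose levels ran most like theirs over the 15 libraries, among 9458 genes. These are Pearson correlations of log2 scaled TPM; the libraries fall into 5 groups and share scale factors, so the values largely follow the group levels and carry no p. Tuba1b ran with Hat1, a histone acetyltransferase gene (r = 0.930), and Mcm5, a replication helicase gene (0.927), and Tubb5 with Chaf1b (0.961) and Uhrf1 (0.953), both of chromatin replication. Tubb6 ran with the mitotic genes Nek2 (0.946) and Cdca3 (0.933). Tubb2a ran with Hypk (0.983) and the proteasome gene Psmc3 (0.977). Tubb2b ran with the tight junction gene Cldn4 (0.991) and Sfn (0.988). Tpm1 ran with 2 genes of actin turnover, Wdr1 (0.997) and Arpc1b (0.990). Tpm3 ran with Tpd52 (0.991) and Cldn4 (0.989), Tpm4 with Rgs5 (0.989) and the chemokine gene Cxcl16 (0.989), and the low Tpm2 with Noc4l (0.964) and Rbm34 (0.939). Among the members, Tpm3 and Tpm4 correlated at 0.986, Tubb2b and Tpm3 at 0.986, Tuba1a and Tuba1b at 0.534, and Tuba1a and Tubb2a at -0.860.

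Among tubulins outside the members, Tuba4a fell and Tuba8 rose with DDC in both cell types. Tuba4a averaged 90.4 scaled TPM in DDC and 269.6 in untreated hepatocytes (log2 difference -1.59, adjusted p = 7.63e-05), and 37.1 in DDC and 84.4 in untreated biliary cells (-1.17, adjusted p = 0.000801). Tuba8 averaged 31.6 in DDC and 7.80 in untreated hepatocytes (1.83, adjusted p = 0.00048), and 4.95 in DDC and 1.62 in untreated biliary cells (1.20, adjusted p = 0.00812). Tubb4a, a beta isotype known from neurons and cilia, averaged 1.02 in DDC and 5.6 in untreated biliary cells (-1.70, adjusted p = 0.000516). Atat1 was called lower in DDC than in untreated hepatocytes (-1.45), at 5.32 in DDC and 15.8 in untreated cells. These genes were chosen after their values were seen.

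Markers of other liver cells were detected in each group. The summed level of 6 endothelial markers was 3.57 to 7.60 scaled TPM in reprogrammed cells, 4.88 to 13.4 in DDC biliary cells, 2.76 to 5.65 in DDC hepatocytes, 3.27 to 5.38 in untreated biliary cells and 2.30 to 3.57 in untreated hepatocytes. For 6 leukocyte markers it was 10.4 to 22.3 in reprogrammed cells, 18.0 to 37.0 in DDC biliary cells, 3.58 to 5.97 in DDC hepatocytes, 43.1 to 63.5 in untreated biliary cells and 4.94 to 9.68 in untreated hepatocytes. Csf1r, a receptor gene of macrophages, was the only called gene of 4 tested leukocyte markers in the comparisons named next. It was higher in untreated biliary cells against hepatocytes (log2 difference 3.90) and in DDC biliary cells against DDC hepatocytes (2.61). The same held in reprogrammed cells against DDC hepatocytes (1.86, limma adjusted p = 0.000324). Over all genes 21.6%, 20.2% and 13.7% were called higher there. Clec4f, another of these markers, was called lower with DDC in hepatocytes and in biliary cells. The part of these cells in the member levels was not tested.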
